A study of Mus musculus with 4 samples.

Results

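The comparison described here sets 1 mammary cell library from ΔNp63 conditional knockout (cKO) mice against 1 wild-type (WT) library, each taken 10 days after tamoxifen. They are 2 of the 4 RNA-sequencing libraries of the study. The other pair holds the same genotypes 5 weeks after tamoxifen, and its values are set beside those at 10 days. It also entered the scaling of the 4 libraries and the choice of genes named as opposed between the times. Of 54393 gene identifiers, 10486 reached at least 10 CPM, the count of a gene as a share of all counts, expressed per 1000000, in either 10-day library, and these genes, which held 97.9% of the counts of each library, are the ones described.

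Both genotypes are labelled as induced with tamoxifen (1.5 mg/ml) at puberty, at 4 weeks of age. The growth protocol text gives gland ages that do not match these times for every library, so age at collection is left out. The cKO deletes floxed ΔNp63 through iK14-Cre, an inducible recombinase under the keratin 14 promoter, so recombination is limited to cells in which that promoter is active. The protocol text names the iK14-Cre floxed line for every library and does not state what the WT animals lacked. Strain, sex and the number of animals behind a library are not given in the sources used here. Glands were digested, cells carrying CD45, CD31 or Ter119 (leukocyte, endothelial and red cell antigens) were sorted out, and 100000 cells went into a library.

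ΔNp63 is the form of the p53 relative p63 that lacks the N-terminal transactivation domain, and it is the main form in basal cells of stratified and glandular epithelia. The mammary duct is a bilayer in which inner luminal cells, marked by keratins 8 and 18, are wrapped by basal cells marked by keratins 5 and 14, which contract like smooth muscle to eject milk. In skin, ΔNp63 is known to sustain basal keratins, desmosomes, hemidesmosomes and the basement membrane they rest on.

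The deposited counts summed to 33363255 in the WT and 31714181 in the cKO library. With 1 library a side, no difference below has a replicate check and no test was made. Values are CPM scaled to effective library size, and differences are log2 ratios of cKO over WT, negative where cKO was lower. Intervals are exact 95% Clopper-Pearson limits on how a gene's counts split between the libraries, and they cover counting error only. Labelled as epithelial, the cells held the pan-epithelial adhesion gene Epcam at 842 CPM in WT and 769 in cKO, together with fibroblast markers summing to 46678 and 42749 CPM over 20 of 20 genes. In such mixed libraries, fewer cells of a type and less RNA per cell cannot be told apart.

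Trp63 itself (ENSMUSG00000022510.14, on the plus strand of chr16:25683763-25892102 in GRCm38) had 1611 counts in WT and 408 in cKO. That is 46.8 against 12.8 CPM and a log2 ratio of -1.86 (counting interval -2.02 to -1.71). The direction matched the genotype labels, and transcripts from the locus were still counted in cKO. Gene counts pool all isoforms and hold any transcript of the recombined allele. Trp53, the tumour suppressor of the family, was within 2-fold at 109 and 65.6 CPM (log2 ratio -0.73). Trp73, the remaining relative, was scarce, with 58 and 23 counts, and its log2 ratio of -1.17 had a counting interval from -1.98 to -0.50.

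Across the 10486 genes the median log2 ratio was -0.02, with quartiles of -0.26 and 0.22 and a standard deviation of 0.69. At a 2-fold difference, 416 genes (3.97%) were lower in cKO and 494 (4.71%) were higher. These 910 were 8.68% of the genes, and 9576 lay within 2-fold. At 4-fold the numbers were 101 (0.963%) and 83 (0.792%). Protein-coding genes made up 387 of the lower and 458 of the higher genes, while predicted models, pseudogenes and immunoglobulin segments numbered 40 and 38. A gene could reach 10 CPM through its higher library alone, which 451 genes did in WT and 469 in cKO. Among genes at 10 CPM in both libraries, 204 were lower and 297 higher by 2-fold. List members at 10 CPM are to be read against the shares of 3.97% lower and 4.71% higher. Lists counted over all members have another background. Of 30056 genes with at least 1 count in either 10-day library, 3264 were lower and 3173 higher by 2-fold. The plot of ratio against mean level shows both tails, with keratins and Calca at the bottom and fat cell genes at the top.

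**Figure D1:**
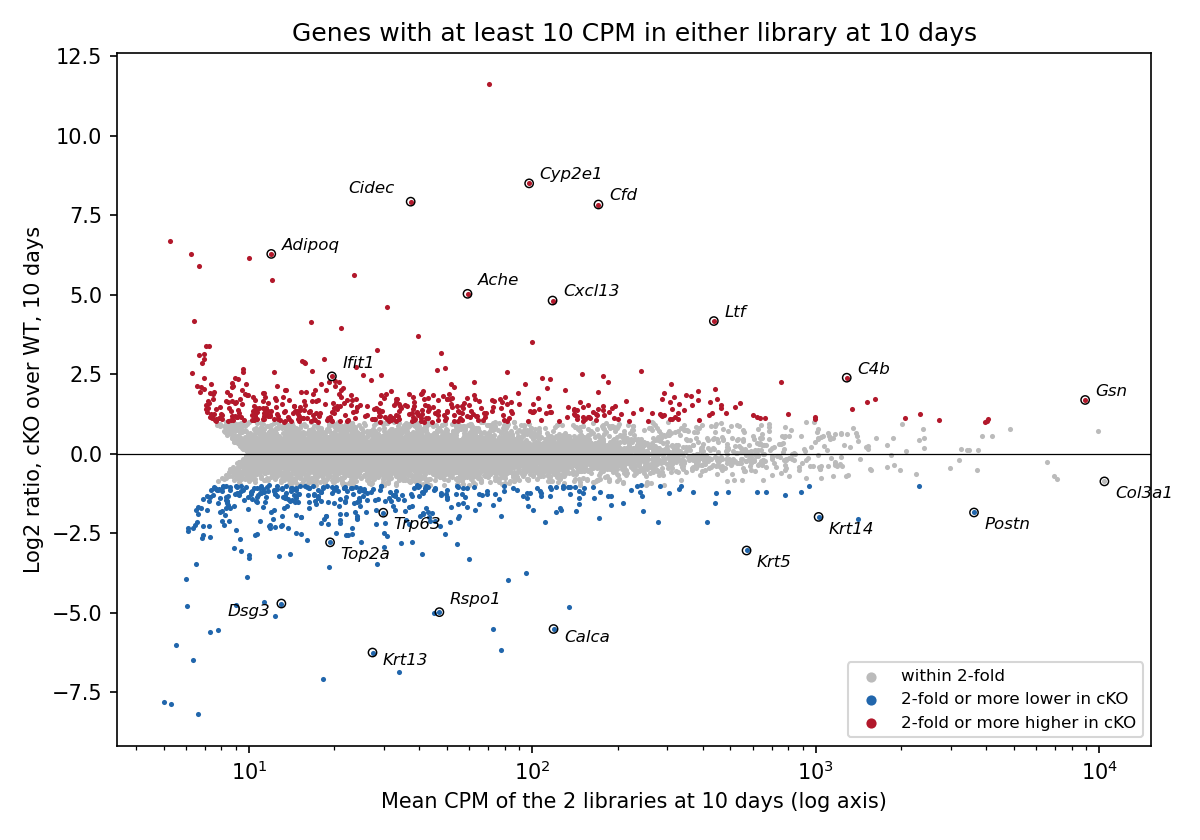
Log2 ratio of cKO over WT at 10 days (vertical axis) against the mean CPM of both 10-day libraries (horizontal log axis) for 10486 genes; each point is 1 gene, blue where at least 2-fold lower in cKO (416), red where at least 2-fold higher (494), grey otherwise. Named genes are ringed, and Krt5, Krt14 and Postn stand out among the abundant genes on the lower side.

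Keratins of basal and stratified epithelium were among the lower genes. Krt5 had 1018 CPM in WT and 123 in cKO, 8.28-fold lower (log2 ratio -3.05, counting interval -3.10 to -3.00). Krt14, its keratin partner and the gene whose promoter drives the Cre, had 1637 and 411 CPM (log2 ratio -1.99). Krt15, a keratin of basal layers, differed more (178 and 13.2 CPM, log2 ratio -3.75). At 5 weeks the WT library lay higher than at 10 days for all 3, at 7826, 6509.7 and 1019.7 CPM, and the cKO library again lay far below it, at 236, 321 and 51.4 CPM.

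The 25 basal identity genes include Trp63, the deleted gene itself. Of the 25, 23 reached 10 CPM at 10 days, of which 14, Trp63 among them, were lower and 2 higher by 2-fold. The median log2 ratio of the 23 was -1.18. The lower ones included the placental cadherin Cdh3 (64.4 and 17.8 CPM, log2 ratio -1.85), the Notch ligand Jag2 (65.0 and 19.7 CPM, -1.72) and the transcription factor gene Sox10 (189 and 53.1 CPM, -1.83). Moxd1, a monooxygenase-like gene, was at 88.0 and 21.5 CPM (-2.03). The caveolar protein gene Cav1 (57.7 and 153 CPM, 1.41) and the protein C receptor gene Procr (29.4 and 67.9 CPM, 1.21), which stromal and endothelial cells also express, were higher. Of the published epithelial p63 targets, 33 of 35 reached 10 CPM, of which 12 were lower and 1 was higher, with a median of -0.67. Trp63 is on this list too, as one of the 12, and Krt5, Krt14, Jag2, Cdh3 and Nrg1 are on both lists. The higher one was Igfbp3, an insulin-like growth factor binding protein, at 263 CPM in WT and 1243 in cKO (2.24), where the 5-week libraries stood at 443 and 426.

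The promoter of Krt5 is shown because p63 is known to act on basal keratin genes, and Krt5 was among the 10 largest losses in CPM. It is the stretch of 250 bases before the RefSeq start, on the minus strand of chr15:101712906-101713155 (GRCm38.p6), with the match to the p53 family half-site in capitals.
Krt5: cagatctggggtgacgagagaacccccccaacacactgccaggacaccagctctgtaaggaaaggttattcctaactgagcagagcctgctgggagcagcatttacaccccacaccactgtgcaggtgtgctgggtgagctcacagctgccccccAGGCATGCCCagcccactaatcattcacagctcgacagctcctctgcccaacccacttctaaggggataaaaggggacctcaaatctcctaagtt
The half-site was found in 2 of 22 windows of basal identity genes (9.09%) and in 7.13% of all 32851 windows of that length, so these letters were about as frequent among basal genes as anywhere.

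Genes of stratified and cornified epithelium had the lowest median log2 ratio of the epithelial lists. Their summed level was 2194 CPM in WT and 979 in cKO, beside 9555 and 5255 for the basal identity genes. Krt13, a keratin of non-cornified squamous epithelium, had 1859 counts in WT and 21 in cKO (54.0 and 0.661 CPM, log2 ratio -6.26). For the keratin pair of suprabasal epidermis, WT and cKO levels were 24.1 and 0.661 CPM for Krt1, and 87.5 and 2.64 for Krt10. The stress-inducible keratin Krt6b was at 142 and 3.05 CPM, and its close paralog Krt6a at 384 and 110.1. Reads of such paralogs can be exchanged by the counting model, as can those of the cornified envelope genes Sprr2a2 (2312 and 17 counts) and Sprr2a3, which had 346 counts in WT and 0 in cKO. Against a floor of 3 counts in the cKO library, Sprr2a3 was at least 106-fold lower.

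Proteases, inhibitors and secreted proteins of the same layers were also at the lower end. Spink5, an inhibitor of epidermal proteases, had 433 and 3 counts, so its log2 ratio of -6.50 had a wide counting interval, from -9.34 to -5.50. The transmembrane serine protease gene Tmprss11b had 528 and 9 counts (-5.55). Serpinb2, which encodes a plasminogen activator inhibitor, went from 14.4 CPM in WT to 0.252 in cKO, but was at 10.9 and 14.9 CPM at 5 weeks, where both genotypes were close to the 10-day WT level. Among 18 of 29 listed genes at 10 CPM, 12 were lower and 1 was higher (median -2.17), and 11 of these 18 reached 10 CPM in 1 library only. Over all 29 members, 17 were lower and 1 higher (median -1.80). The higher one was the keratin gene Krt78, at 2.73 and 16.4 CPM.

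Krtdap, a secreted marker of differentiating keratinocytes, had 403 counts in WT and 12 in cKO (-4.80). Its promoter is shown as an example of the AP-1 site TGANTCA, letters searched on both strands and marked here in capitals. The window holds 250 bases on the plus strand of chr7:30787655-30787904 (GRCm38.p6, RefSeq).
Krtdap: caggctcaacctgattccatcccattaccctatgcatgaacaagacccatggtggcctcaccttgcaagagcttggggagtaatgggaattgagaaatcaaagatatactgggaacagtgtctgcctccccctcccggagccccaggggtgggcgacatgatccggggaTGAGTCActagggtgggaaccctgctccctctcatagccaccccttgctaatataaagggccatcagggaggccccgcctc
That site occurred in 12 of 26 windows of stratified epithelium genes (46.2%) and in 6.75% of all windows.

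Some junction genes were also lower. The desmosomal cadherin gene Dsg3 had 25.1 CPM in WT and 0.913 in cKO (-4.72), and the connexin 26 gene Gjb2 had 35.5 and 2.93 (-3.58). Plakophilin gene Pkp1, desmocollin gene Dsc2 and the desmosome-associated gene Perp had log2 ratios of -1.29, -1.32 and -1.14. Desmoplakin, the plaque protein encoded by Dsp, was just inside 2-fold (388 and 196 CPM, -0.98) and passed it when libraries were scaled by their totals alone. In all, 6 of 13 desmosome and junction genes at 10 CPM were lower and 0 higher (median -0.98). At 5 weeks the median of the same genes was -2.27, and the cKO levels of Pkp1 were alike at both times, at 79.1 and 74.8 CPM, while WT was at 193 and 779.

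Hemidesmosome and laminin-332 genes, which anchor basal cells to the basement membrane, included 4 lower and 0 higher genes of 12 (median -0.70). Col7a1, the anchoring fibril collagen, was at 677 CPM in WT and 151 in cKO (-2.16), and Col17a1, a hemidesmosomal collagen, at 287 and 92.9 (-1.63). The laminin-332 chain genes Lamb3 (-1.60) and Lama3 (-1.24) were lower by 2-fold. The linker genes Dst (468 and 639.8 CPM, 0.45) and Plec (382 and 549.8 CPM, 0.53) lay above 0.

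Contractile genes differed less than the basal keratins. Acta2, smooth muscle actin, had 1267 and 624 CPM (-1.02), and the actin-binding gene Tagln had 449 and 208 (-1.11). The enteric actin gene Actg2 was lowest (40.6 and 11.4 CPM, -1.82). Beside 3.97% lower and 4.71% higher of all genes, 3 of 18 contractile genes were lower and 1 was higher (median -0.39). The higher one was the desmin gene Des (16.2 and 50.1 CPM). The 5-week median was 0.06, and at that time Acta2 was at 690.3 and 772 CPM. Pericyte and vascular smooth muscle markers, some of which are the same genes, summed to 1335 CPM in WT and 1374 in cKO at 10 days over 15 genes, and their part in these values was not tested.

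Some genes at the lower end were abundant in the 10-day WT library alone. Calca (chr7:114631478-114636357, minus strand), which encodes calcitonin and its related peptide, had 8017 counts in WT and 160 in cKO (233 and 5.04 CPM, log2 ratio -5.52), and lay at 1.25 and 0.501 CPM at 5 weeks. Rspo1 (chr4:124986430-125009099, plus strand), a secreted enhancer of Wnt signalling, had 91.2 CPM in WT against 2.83 in cKO, with 4.15 and 3.77 at 5 weeks. The same arrangement held for the nuclear receptor gene Esrrb (17.4 and 0.598 CPM, then 0.924 and 2.95). It also held for the ectonucleotidase gene Entpd8 (36.5 and 0.22, then 0.325 and 0.206), whose exons overlap those of Noxa1 on the other strand. For these 4 genes 3 of the 4 libraries were low, so the ratio at 10 days rests on 1 high WT library.

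The reverse arrangement was found among the higher genes. Ache, acetylcholinesterase, had 3.48 CPM in the 10-day WT library and 115, 129 and 76.1 in the 10-day cKO and the 5-week WT and cKO libraries. Ufsp1, a protease gene next to Ache on the same strand, followed it (1.74, 31.4, 40.0 and 22 CPM in the same order). Gemin4, a subunit of the complex that assembles spliceosomal particles, had 4 counts in the 10-day WT library and 395 in cKO, and 11.3 and 8.25 CPM at 5 weeks. It shares exons with Glod4 on the same strand, so reads may be divided between them. Gabra3, a subunit gene of the receptor for the transmitter GABA, and Fam25c were higher too (2.55 and 39.7 CPM for Gabra3, 5.57 and 73.4 for Fam25c).

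Genes past 2-fold at 10 days were also set beside the range of levels in the 5-week pair. They were picked for their gap at 10 days, and a gene could reach 10 CPM through its higher library alone. No such count was made over all genes, so the numbers do not show which 10-day library was unusual. Among the 416 lower genes, 140 had only the 10-day WT library at least 2-fold beyond the range of the 5-week pair, 43 only the cKO library, 2 both and 231 neither. Among the 494 higher genes the numbers were 116, 62, 6 and 310. On the side of the largest losses in CPM, Fcgbp, a mucin-like secreted protein gene, had 2276 and 552 CPM (-2.04) with 1206 and 575 at 5 weeks, and the collagen gene Col16a1 had 1115 and 450.4 (-1.31) with 419.9 and 445. The plot of named genes in every library shows the main arrangements side by side.

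**Figure D2:**
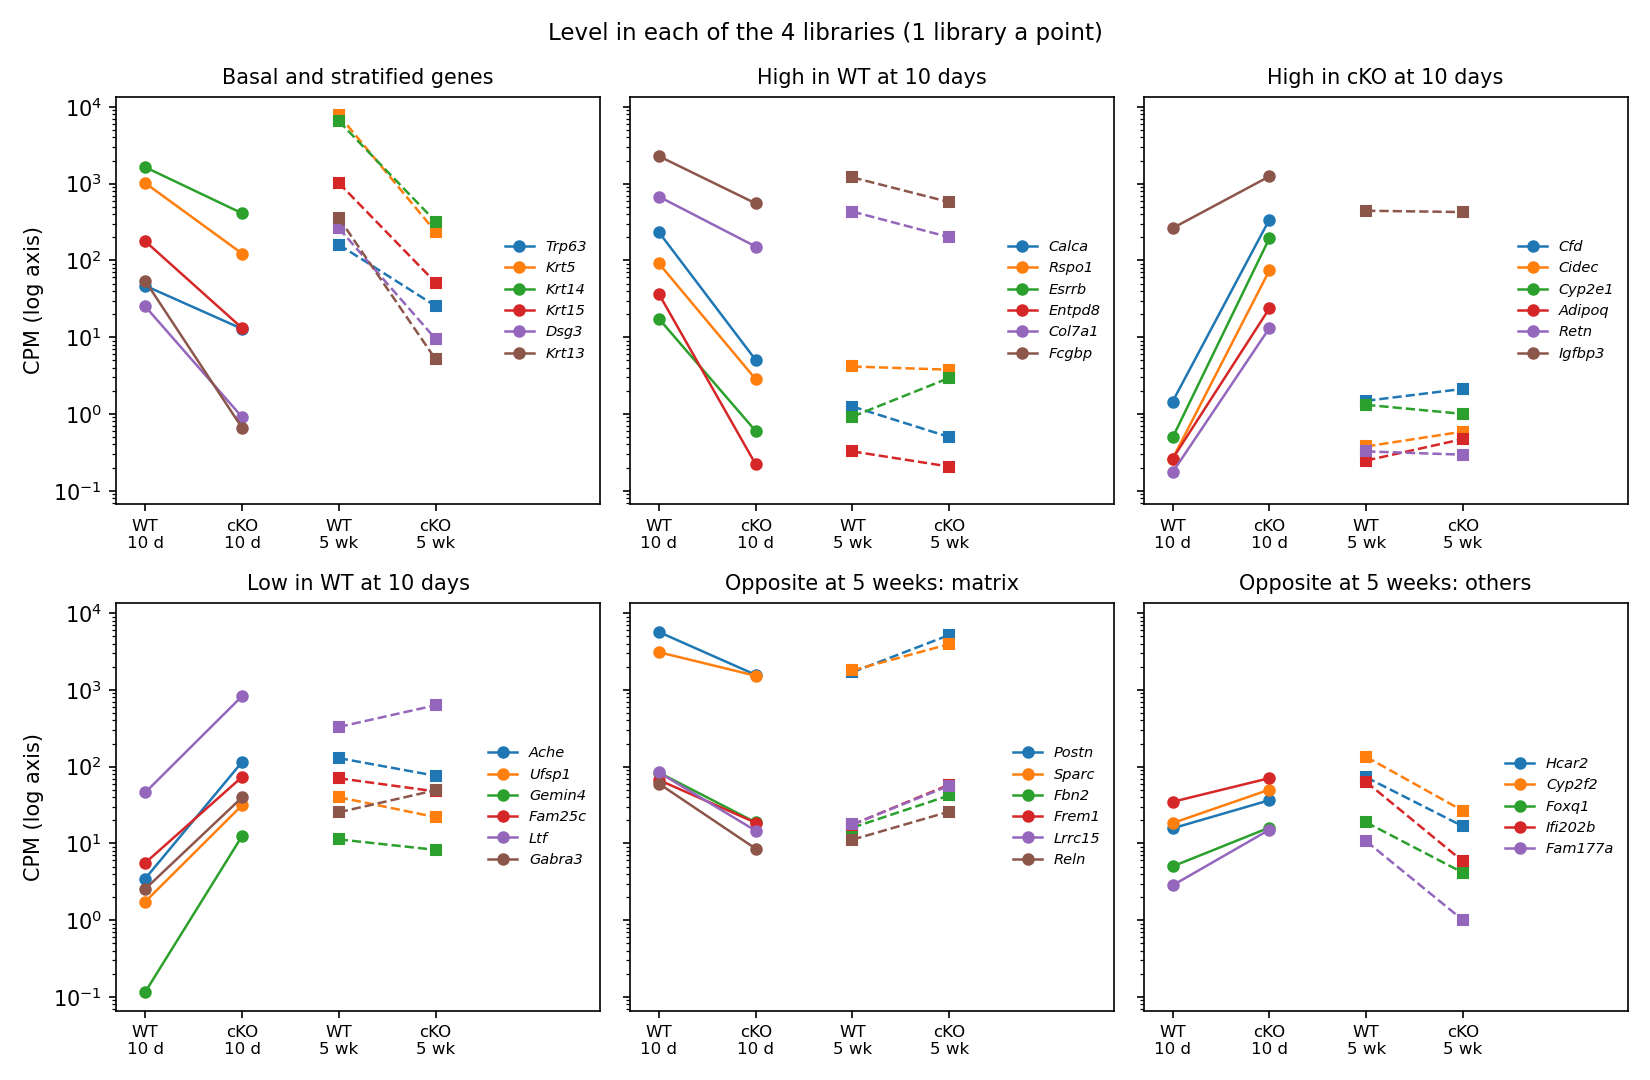
CPM on a log axis in each of the 4 libraries, 1 library a point, joined within a time (circles and solid lines at 10 days, squares and dashed lines at 5 weeks); panels hold 5 or 6 genes each. Basal and stratified genes are low in both cKO libraries, Calca, Rspo1, Esrrb and Entpd8 are high only in the 10-day WT library, and Cfd, Cidec, Cyp2e1, Adipoq and Retn only in the 10-day cKO library.

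Genes of mitosis were lower in cKO. The proliferation marker Mki67 had 1501 counts in WT and 201 in cKO (log2 ratio -2.78), and the topoisomerase gene Top2a had 1166 and 154 (-2.79, counting interval -3.06 to -2.56). Prc1 and Kif23, which act in the central spindle during cell division, had log2 ratios of -2.69 and -2.66. Of 25 listed genes, 10 reached 10 CPM and all of these were lower (median -2.30), but each reached it in WT only. Over all 25 members, 24 were lower and 0 higher by 2-fold (median -2.45). The exception was the kinase gene Aurka, at 112 and 162 counts.

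Replication genes differed less. Of 28 listed, 17 reached 10 CPM, of which 4 were lower and 0 higher (median -0.58), and over all 28 members 10 were lower and 0 higher (median -0.70). The 4 were the chromatin and replication genes Uhrf1 (19.9 and 3.93 CPM, -2.33), Mcm5 (24.4 and 6.14, -1.98), Fen1 (-1.48) and Chaf1a (-1.23). The DNA methyltransferase gene Dnmt1 (-0.42) and the sliding clamp gene Pcna (-0.12) were within 2-fold. Median ratios at 5 weeks were -1.30 for the mitosis and -0.72 for the replication genes.

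The Top2a promoter is shown for the CCAAT box, a motif known from cell cycle promoters, searched as CCAAT on both strands and given in capitals. It held 6 matches in 250 bases on the minus strand of chr11:99024190-99024439 (GRCm38.p6, RefSeq).
Top2a: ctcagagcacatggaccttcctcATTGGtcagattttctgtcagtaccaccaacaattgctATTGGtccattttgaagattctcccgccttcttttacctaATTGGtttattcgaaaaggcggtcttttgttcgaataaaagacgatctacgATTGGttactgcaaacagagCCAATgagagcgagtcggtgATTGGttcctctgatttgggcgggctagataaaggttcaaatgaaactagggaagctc
A CCAAT box was found in 19 of 22 windows of mitosis genes (86.4%) and 20 of 30 of replication genes (66.7%), beside 33.8% of all windows. The cell cycle genes homology region TTTGAA occurred in 8 of 22 mitosis windows (36.4%) and 16% of all.

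Most collagens lay below 0 but within 2-fold at 10 days. Col3a1 and Col1a1, fibrillar collagens of the stroma, had log2 ratios of -0.88 (13514 and 7365 CPM) and -0.79 (9018 and 5205). The basement membrane collagens Col15a1 (869 and 373 CPM, -1.22), Col4a6 (-1.04) and Col18a1 (-1.02) passed 2-fold. Thus 3 of 17 collagens were lower and 0 higher, beside 3.97% lower and 4.71% higher of all genes. The collagen median was -0.70, and the summed level was 43629 CPM in WT and 26987 in cKO. At 5 weeks the order was the opposite, with 26288 CPM in WT, 55969 in cKO, a median of 0.70 and 5 of the 17 at least 2-fold higher.

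Matrix proteins did not all follow the collagens. Postn, periostin, was likewise lower in cKO at 10 days and higher at 5 weeks (5669 and 1569 CPM at 10 days, 1702 and 5184 at 5 weeks). The collagen-binding gene Sparc differed in the same directions (3097 and 1526, then 1793 and 3947 CPM). Tenascin C, encoded by Tnc (20.2 and 85.6 CPM, 2.08), thrombospondin 2, encoded by Thbs2 (210.4 and 686, 1.70), and the metalloproteinase gene Mmp11 (1.25) were higher in cKO. The proteoglycan gene Dcn was at the 2-fold line (2643 and 5298 CPM) and fell short of it under 3 of 4 other scalings. Of 25 matrix genes, 2 were lower and 4 higher (median 0.19), beside 3.97% lower and 4.71% higher of all genes.

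Fibroblast markers were likewise mixed, with 2 lower and 7 higher of 20 (median 0.55), beside 3.97% lower and 4.71% higher of all genes. Gsn, the actin-severing gelsolin and the gene with the largest CPM gain, was at 4235 CPM in WT and 13619.9 in cKO (1.69), with 9363 and 10361 at 5 weeks, so that the 10-day WT library was the lowest of the 4. The peptidase gene Dpp4 (31.6 and 78.4 CPM, 1.31) and the surface gene Ly6c1 (59.6 and 169, 1.50), found on some fibroblasts, were higher, whereas the surface glycoprotein gene Thy1 (206 and 98.2, -1.07) was lower. The summed fibroblast markers, 46678 and 42749 CPM, and the median differed in direction.

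Several fat cell genes were at the upper end. Cyp2e1, a cytochrome P450 that oxidises ethanol, had 17 counts in WT and 6179 in cKO, 394-fold higher (0.494 and 195 CPM). Cidec, a lipid droplet protein gene (chr6:113424634-113435760, minus strand), had 9 and 2358 counts, a log2 ratio of 7.92 (counting interval 7.22 to 9.28). Cfd, which encodes adipsin, had 50 and 10832 counts (1.45 and 341 CPM, 235-fold). Prg4, which encodes the lubricating protein of joints, is not a fat cell marker and was higher with them (0.9 and 46.0 CPM, 5.61). The hormone genes Adipoq (adiponectin, 9 and 754 counts) and Retn (resistin, 6 and 418) followed, as did Car3, a carbonic anhydrase (2.38 and 59.1 CPM), and Plin4, a lipid droplet coat gene (16.3 and 184 CPM).

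In the other 3 libraries Cyp2e1, Cidec, Cfd, Adipoq and Retn were all under 3 CPM, so the 10-day cKO library stood alone. Of 17 adipocyte markers, 14 reached 10 CPM, of which 10 were higher and 0 lower (median 2.58), and 8 of the 14 reached it in 1 library only. Over all 17 members 11 were higher and the median was 1.77. Their summed level was 818 CPM in WT and 2021 in cKO. Lep, leptin, had 1 and 12 counts, and the brown fat gene Ucp1 had 11 in each. The lipase gene Lpl (449 and 602 CPM, 0.42) and the fatty acid binding gene Fabp4 (93.7 and 262, 1.48), which other stromal and endothelial cells express, differed less. The part of fat cell RNA in the remaining differences was not tested.

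Lipid synthesis genes as a group did not differ much at this time. Acacb, which makes malonyl-CoA at mitochondria (15.7 and 58.0 CPM, 1.88), and the glycerolipid gene Gpam (1.28) were higher, and the desaturase genes Fads2 (222 and 64.0 CPM, -1.80) and Fads1 (-1.04) were lower, out of 18 fatty acid genes with a median of 0.20. The 22 cholesterol synthesis genes had 0 lower members and a median of 0.03 at 10 days, and a median of -1.23 at 5 weeks. Over all genes 3.97% were lower and 4.71% higher at 10 days.

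Luminal keratins were nearly level. Krt8 had 3085 and 3429 CPM (0.15) and Krt18 had 1616 and 1947 (0.27). Of 17 luminal keratin and differentiation genes 0 were higher and 2 were lower, the epithelial transcription factor genes Ehf (147 and 47.1 CPM, -1.64) and Ovol1 (31.7 and 12.3, -1.36), and the median was 0.04. Against this level background, the hormone-sensing genes lay mostly above 0.

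Hormone-sensing luminal genes carry the receptors for oestrogen, progesterone and prolactin. Pgr, the progesterone receptor gene, was at 63.4 CPM in WT and 129.5 in cKO (1.03), while Esr1 (48.2 and 90.3, 0.91) and Prlr (445 and 837, 0.91) stayed under 2-fold. Stc2, a secreted glycoprotein gene (64.7 and 305 CPM, 2.24), the surface gene Ly6a (157 and 612, 1.96) and the fibrinogen chain gene Fgb (23.3 and 77.0, 1.72) differed most on the higher side. In all, 7 of 20 were higher and 3 lower (median 0.89), beside 4.71% higher and 3.97% lower of all genes. The 3 lower ones were Calca, the RANK ligand gene Tnfsf11 (17.6 and 7.24 CPM, -1.27) and Sectm1b (-1.23). At 5 weeks the median was 0.05, and the 10-day WT library was the lowest of the 4 for Esr1, Pgr, Prlr, Stc2, Ly6a and Fgb.

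Luminal progenitor genes leaned the other way, with 4 of 17 lower and 0 higher (median -0.32), beside 3.97% and 4.71% of all genes. Besides Rspo1 the lower ones were Plb1, a phospholipase gene (74.2 and 16.9 CPM, -2.13), the integrin gene Itga2 (45.4 and 17.1, -1.41) and the transferrin gene Trf (937 and 402, -1.22). The receptor gene Kit was at 344 and 285 CPM (-0.27). For Plb1, Trf and Itga2 the 10-day WT library was the highest of the 4.

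Secretory genes split. Ltf, lactoferrin, an iron-binding milk protein, had 46.1 CPM in WT and 828 in cKO (4.17), beside 329 and 631 at 5 weeks. Xdh, which coats milk fat droplets (175 and 710.2 CPM, 2.02), and the whey protein gene Lalba (3.60 and 27.3, 2.91) were higher too. The casein gene Csn1s1 was lower (21.8 and 0.818 CPM, -4.66) and the mucin gene Muc15 also (91.9 and 37.9, -1.28). Of 12 listed genes at 10 CPM 6 were higher and 2 lower (median 0.88), but over all 19 the counts were 6 and 6 and the median -0.09.

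Complement genes C3 and C4b and several chemokines were higher. C3, the central complement component, had 1397 and 3273 CPM (1.23), and C4b, a component acting before it, had 414 and 2160.4 (2.39), which made the 10-day cKO library the highest of the 4 for both. The B cell attractant Cxcl13 was at 8.07 CPM in WT and 228 in cKO (4.81), with 13.6 and 32.5 at 5 weeks. Among 20 of 25 chemokines and cytokines at 10 CPM, 11 were higher and 0 lower (median 1.28), including the monocyte attractants Ccl2 (34.2 and 155 CPM, 2.18) and Ccl7 (2.20) and the lymph node chemokine Ccl19 (6.88 and 33.4, 2.27). Over all 25 members 12 were higher and the median was 0.79.

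Interferon-stimulated genes were higher by a smaller amount. Ifit1, which binds viral RNA, had 211 counts in WT and 1053 in cKO (2.43), and its neighbour in function Ifit3 had 160 and 651 (2.13, counting interval 1.89 to 2.40). The guanylate-binding gene Gbp2 (1.55) and the nucleic acid sensor gene Zbp1 (1.48) were higher as well. Of 23 of 26 genes at 10 CPM, 11 were higher and 0 lower (median 0.95), and 9 of the 23 reached 10 CPM in 1 library only. Over all 26 members 12 were higher and the median was again 0.95. The 15 antigen presentation genes at 10 CPM all lay within 2-fold (median 0.34).

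The Ifit3 promoter is shown for the interferon-stimulated response element, whose core, 2 copies of GAAA with any 2 bases between them, was searched on both strands and is in capitals. It held 2 matches, both on the complementary strand, in 250 bases on the plus strand of chr19:34583279-34583528 (GRCm38.p6, RefSeq).
Ifit3: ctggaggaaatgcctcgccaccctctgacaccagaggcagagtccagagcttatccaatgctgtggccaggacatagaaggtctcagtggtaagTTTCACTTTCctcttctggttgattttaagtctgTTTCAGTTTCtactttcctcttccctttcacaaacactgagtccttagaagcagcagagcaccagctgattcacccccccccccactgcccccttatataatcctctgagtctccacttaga
The core occurred in 9 of 22 windows of interferon genes (40.9%) and in 2.98% of all windows. In total 9 motifs were searched in the windows of 8 lists, 72 pairs, and those printed here were picked after all had been seen. A match describes letters in a window and nothing about binding.

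Leukocyte genes stand beside the chemokine and interferon values. The pan-leukocyte gene Ptprc, whose product CD45 the sort removes, was at 9.32 CPM in WT and 18.9 in cKO (1.01), and slipped under 2-fold when libraries were scaled by their totals alone. Myeloid markers summed to 232 and 246 CPM over 20 genes, a sum that includes Cd14, also listed as a luminal progenitor gene. The neutrophil gene S100a8 was at 23 and 145 counts. Over all 20 myeloid members 6 were higher and 0 lower by 2-fold (median 0.52), and 15 of the 20 were under 10 CPM. Lymphocyte markers summed to 55.6 and 107 CPM over 20 genes. Of these 9 were higher and 1 lower (median 0.87), and 18 were under 10 CPM. Of 30056 genes with at least 1 count in either 10-day library, 3173 were higher and 3264 lower by 2-fold. Endothelial markers summed to 301 and 417 CPM over 16 genes. The part of these cells in the higher chemokine and interferon values was not tested.

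Immediate early genes, which respond within minutes to stimuli including tissue dissociation, lay mostly above 0. Zfp36, an RNA decay factor gene, had 2593 and 5518 CPM (1.09), and the AP-1 subunit gene Jun had 1767 and 3697 (1.07). Egr1 (2655 and 5365 CPM, 1.01) passed 2-fold except when libraries were scaled by their totals alone. Of 24 genes 3 were higher and 1, Egr3 (322 and 161), was lower, with a median of 0.55. The heat shock genes Hspa1a (1.15) and Hspa1b (1.14), nearly identical copies, were the 2 higher members of 15. The nuclear RNA Neat1 (754 and 2495 CPM, 1.73), the ion transporter gene Slc12a2 (744 and 2281, 1.62) and the glutamine synthetase gene Glul (1303 and 2836, 1.12) were among the largest gains in CPM, an order that favours long and abundant transcripts.

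Medians of the pathways named next ran from -0.23 for Wnt to 0.23 for growth factor genes. Quartiles of all genes were -0.26 and 0.22, and 3.97% of all genes were lower and 4.71% higher by 2-fold. Notch genes had 3 lower and 0 higher of 15 (Jag2, the feedback inhibitor Nrarp at -1.72 and the effector Heyl at -1.13), with a median of -0.20. Over all 21 Notch members 3 were lower and 2 higher (median 0.02). Wnt genes had 3 lower and 0 higher of 23 (Rspo1, Wnt5b at -1.91 and Wnt10a at -1.44), with a median of -0.23. Lower genes were a larger share of the Notch and Wnt lists than of all genes. Growth factor and receptor genes had 0 lower and 2 higher of 17, the stromal ligands Fgf7 (1.77) and Fgf10 (1.10). Over all 24 of them 2 were lower and 2 higher (median 0.01). Among p53 targets 1 was lower, Perp, and 1 higher, the stress protein gene Trp53inp1 (1.27), of 20. Unfolded protein response (17) and nuclear respiratory chain genes (25) had 0 calls, with medians of 0.10 and -0.05.

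Glycolysis genes had 1 call in 19, the mitophagy gene Bnip3 (13.8 and 46.2 CPM, 1.74), and among 17 clock genes Dbp, a transcription factor of the clock output, was higher (3.31 and 14.1 CPM, 2.08). Regulators of epithelial-mesenchymal transition had 2 lower and 1 higher of 15 (Cdh3, Ovol1 and the mesenchymal factor Prrx1, the last at 41.8 and 113 CPM). Mitochondrially encoded genes had a median of -0.52 at 10 days and 1.08 at 5 weeks, with mt-Co2, a cytochrome oxidase subunit, at 1241 and 541 CPM (-1.20). The share of counts from the mitochondrial genome was 1.24% in WT and 0.818% in cKO, and 2.79% and 2.11% came from ribosomal protein genes, of which 30 had a median of -0.36. The plot of list members places lists of 7 or more such genes on 1 scale.

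**Figure D3:**
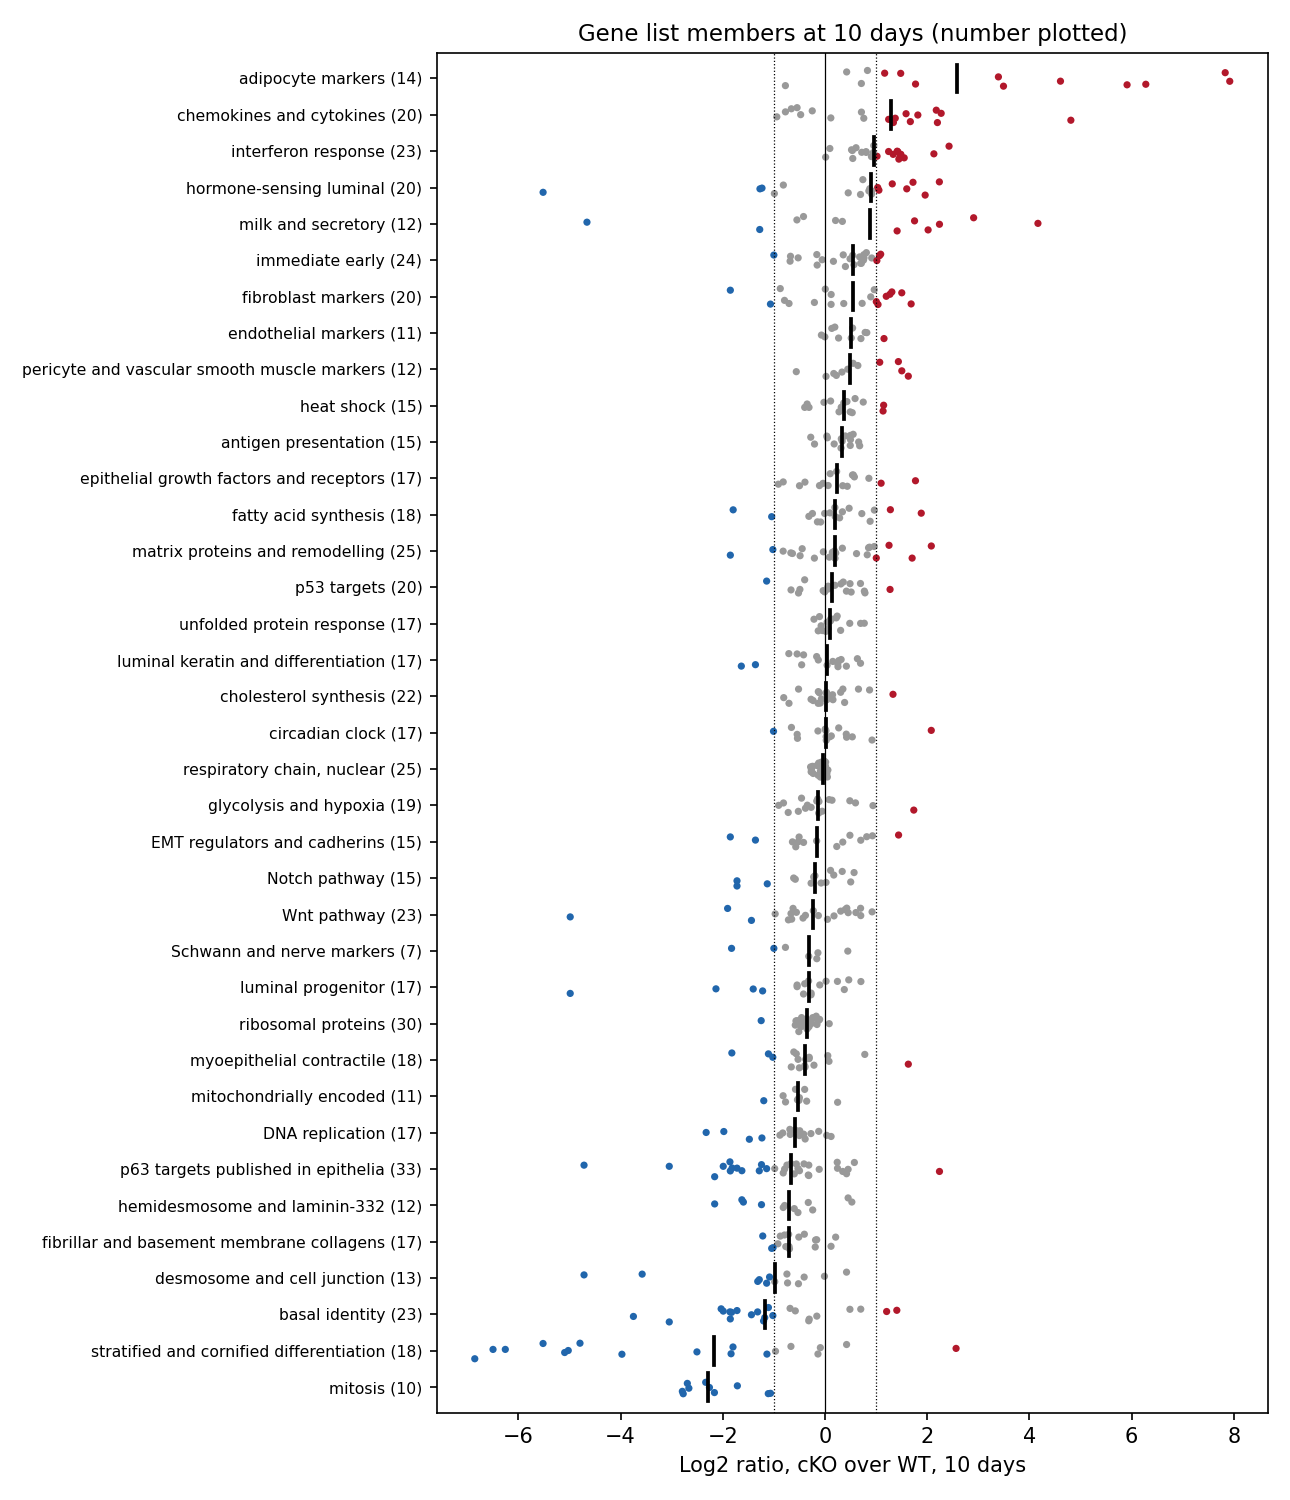
Log2 ratio of cKO over WT at 10 days (horizontal axis) for the members of each gene list at 10 CPM or more in either library; each point is 1 gene (blue 2-fold or more lower, red 2-fold or more higher), black bars are list medians, dotted lines mark 2-fold, and lists of under 7 such members are not drawn. Medians run from 2.58 for adipocyte markers to -2.30 for mitosis genes.

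Beside the pair at 5 weeks, which shares no library with the pair at 10 days, part of the differences recurred. Of the 416 lower genes 119 (28.6%) were also at least 2-fold lower at 5 weeks, which 4.1% of the 10486 genes were, and these 119 were 27.7% of the 430 among them that were lower at that time. Of the 494 higher genes 102 (20.6%) were also higher, where the share over all genes was 3.07%, and they made up 31.7% of the 322 higher at 5 weeks. Within 2-fold at 5 weeks lay 271 of the lower and 374 of the higher genes, and past 2-fold the other way lay 26 and 18. No minimum level at 5 weeks was asked for in these counts. The sign was the same for 61.1% of the lower genes, where 56.2% of all genes lay below 0 at 5 weeks. It was the same for 75.7% of the higher genes, where 43.8% of all genes lay above 0. Over all genes, both signs pooled, it was the same for 61.1%. Across genes, which are not independent replicates, the ratios had a Pearson r of 0.33 and a Spearman rho of 0.32. The 5-week pair differs in time as well as in library and is no replicate of the 10-day pair.

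Transcript length was set beside the ratios because fragmented RNA can give a length trend. Spearman's rho with the exonic length of 10079 protein-coding genes was 0.01 at 10 days and 0.30 at 5 weeks. Shares of counts from the 10 most abundant genes were 6.94% in WT and 7.21% in cKO at 10 days.

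Among genes at 10 CPM or more at both times, 35 passed 2-fold in opposite directions, 20 lower then higher and 15 higher then lower. Several of the first kind are matrix and mesenchymal genes. The imprinted RNA H19 had 68.9 and 17.4 CPM at 10 days and 41.1 and 194 at 5 weeks. Reln, reelin (60.1 and 8.53, then 11.2 and 26.0), Lrrc15 (84.0 and 14.6, then 17.7 and 56.6) and the fibrillin gene Fbn2 (83.8 and 18.8, then 16.1 and 42.2) were also lower, then higher, as were Frem1 and Postn. For these genes the 10-day WT and the 5-week cKO library lay high together.

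Of the second kind, Cyp2f2, a cytochrome P450 gene, had 18.4 and 50.2 CPM at 10 days and 134 and 26.6 at 5 weeks. The interferon-inducible gene Ifi202b had 34.8 and 70.9, then 63.3 and 5.83, and it fell just short of 2-fold at 10 days when libraries were scaled by their totals alone. The forkhead gene Foxq1 (173 and 511 counts at 10 days), the metabolite receptor gene Hcar2 and Fam177a were also higher, then lower. The plot of both pairs gene by gene shows the opposed groups in its upper left and lower right.

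**Figure D4:**
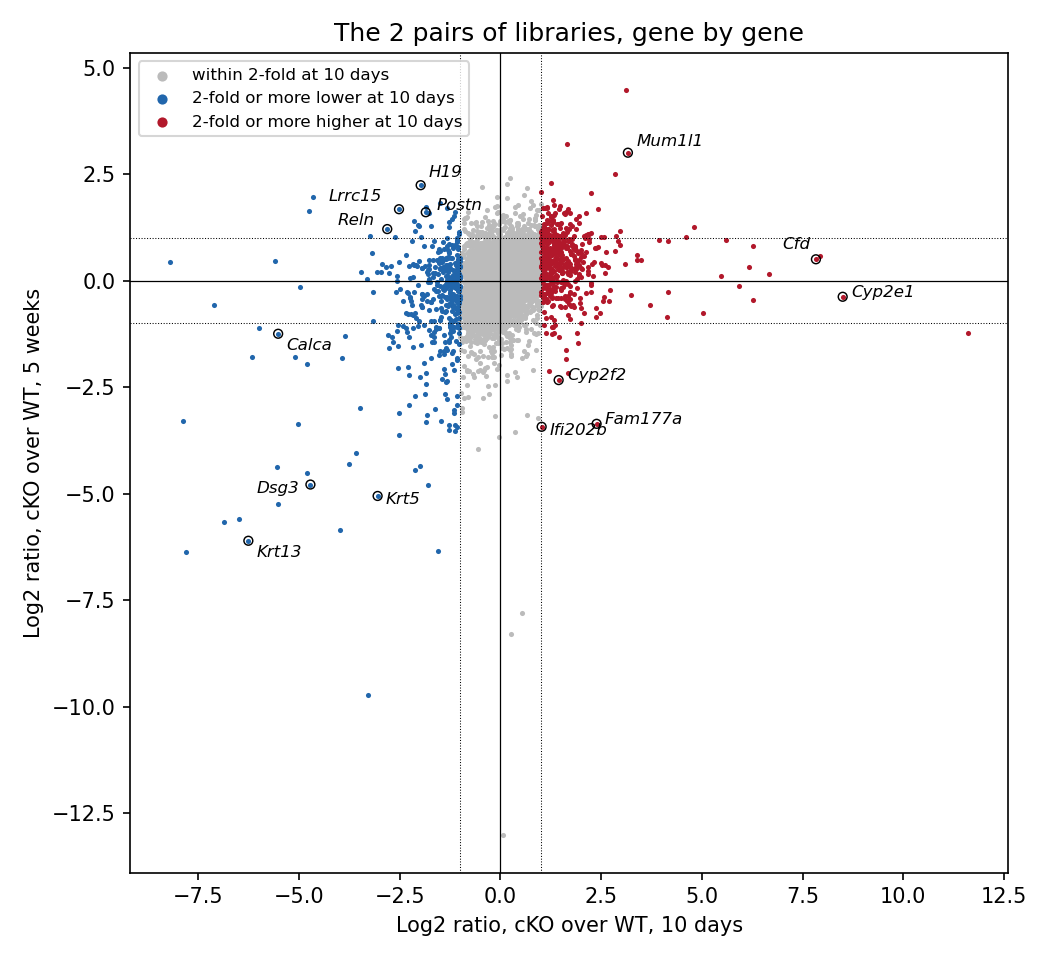
Log2 ratio of cKO over WT at 5 weeks (vertical axis) against that at 10 days (horizontal axis) for the 10486 genes; each point is 1 gene, blue or red where at least 2-fold lower or higher at 10 days, dotted lines mark 2-fold. Keratins and Dsg3 are low at both times, Calca, Cfd and Cyp2e1 extend along the horizontal axis, and Postn, H19, Lrrc15 and Reln lie in the upper left.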

How the data were processed

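RNA sequencing of sorted mouse mammary cells was used in the form the authors deposited, whole-number estimated counts per gene for 4 libraries. The submitters' processing notes name Salmon, with no version, and the GRCm38 build. Not given in the sources used here are the library type, the strand setting and the annotation. The 54393 identifiers all matched GENCODE M21 (GRCm38), which gave symbols and positions. Salmon divides reads shared by paralogs, pseudogenes and overlapping genes by a model, so values of such genes are uncertain.

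Groups came from the genotype and time labels. Factors by the trimmed mean of M values (edgeR 4.0.16, R 4.3.3) were computed over the 4 libraries on 18917 genes kept by filterByExpr, and CPM used the resulting effective sizes. Log2 ratios used a prior count of 2 (numpy 2.4.6, pandas 2.3.3). Exact intervals came from scipy 1.17.1, and a gene at 0 was set against a floor of 3 counts. The ratio step was tested on simulated counts. Alternatives were other scalings, prior counts, minimum levels and fold thresholds.

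The comparison, the 44 gene lists (32 of pathways, 12 of cell types) and the naming rule were chosen with earlier results of these data known. Named were Trp63, Trp53 and Trp73, the 15 highest and 15 lowest ratios, the 10 largest CPM gains and 10 losses past 2-fold, and 12 genes opposed at 5 weeks. Each list added its 2 most abundant members and up to 4 of the largest ratios past 2-fold. Aurka, Cav1, Epcam, Esr1, Fabp4, Krt78, Lep, Muc15, Pgr, Procr, S100a8, Sectm1b, Thy1, Tnfsf11 and Ucp1 fall outside that rule and were chosen after their values were seen. A few genes that the rule names are not reported here. Promoters are RefSeq sequences of GRCm38.p6, searched in the 250 bases before 32851 starts. Genes matched by symbol were 19 of 26 for interferon, 21 of 25 for mitosis, 25 of 28 for replication, 22 of 29 for stratified epithelium and 15 of 25 for basal identity.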

Additional observations from a re-analysis of the deposited data

Results flagged for a closer look

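Among genes at 10 CPM or more at both times, a total of 35 passed 2-fold in opposite directions at 10 days and 5 weeks. For these the sign of the genotype difference was opposite in the 10-day and the 5-week pair. This was not tested, and time and library cannot be told apart, because each genotype and time had 1 library. On the side lower at 10 days and higher at 5 weeks, the log2 ratios at 10 days were -1.98 for H19, -2.52 for Lrrc15, -2.81 for Reln, -1.85 for Frem1, -2.16 for Fbn2 and -1.85 for Postn. On the side higher at 10 days and lower at 5 weeks, they were 1.21 for Hcar2, 1.45 for Cyp2f2, 1.67 for Foxq1, 1.02 for Ifi202b and 2.39 for Fam177a. Foxq1 and Fam177a had few counts in the WT library at 10 days (173 and 98).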

How the results depend on the processing

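Under 4 other scalings (library totals with no factor, DESeq2 1.42.0 size factors, upper-quartile factors and factors from the 10-day pair alone) and prior counts of 0.5 and 10, the counts of lower and higher genes, the Trp63 ratio and the overlaps with 5 weeks moved by less than 1.5 times or within the counting interval. The median of all genes went from -0.02 to -0.06 at most. Counts of genes followed the minimum level and the fold asked for, by construction. Lower and higher genes numbered 1093 and 1110 at 1 CPM in either library, 152 and 239 at 50 CPM, 3264 and 3173 at 1 count, 101 and 83 at 4-fold, and 954 and 1074 at 1.5-fold. Of 43 list medians, 3 changed sign under another scaling (luminal keratins, cholesterol synthesis and clock genes, none over 0.04 in size), 0 under another prior count, and 6 when all members with a count were included. Mal, Dsp, Dcn, Ptprc, Egr1 and Ifi202b crossed 2-fold under at least 1 scaling or prior count. No paired analysis was possible because each genotype and time has 1 library. Depth limits genes of few counts, where the intervals are widest.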

Other observations

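Further cell type markers were counted at 10 days. Of 13 Schwann and nerve genes 7 reached 10 CPM, of which Sox10, which basal cells also express, and Mal were lower and 0 were higher (median -0.32). Of 8 erythroid genes the haemoglobin genes Hba-a1 (10.2 CPM in WT and 4.00 in cKO) and Hba-a2 (16.8 and 8.22), near-identical copies, reached 10 CPM and were lower, and the list summed to 33.3 and 15.5 CPM. Skeletal muscle markers had 0 of 14 genes at 10 CPM and summed to 6.21 and 15.2 CPM. Over all 14 members, each of low level, 11 were higher and 0 lower by 2-fold (median 1.47). Of 30056 genes with at least 1 count in either 10-day library, 3173 were higher and 3264 lower. Mast cell, melanocyte and hair follicle lists had 1 gene each at 10 CPM, Kit, Mitf and Sox9, all within 2-fold. Pericyte and vascular smooth muscle markers had 4 higher and 0 lower of 12, among them the potassium channel subunit gene Abcc9 (35.5 and 96.2 CPM, 1.44) and the vitronectin gene Vtn (13.6 and 38.8, 1.50). Of 11 endothelial markers the angiopoietin receptor gene Tek (18.8 and 41.9 CPM, 1.15) was higher and 0 were lower.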
